A study of Mus musculus with 12 samples.

Results

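Hindlimb libraries of the mouse lymphedema model differed widely in epidermal RNA, and a set with little of it was compared with a set that carried more across all other genes. The sets were drawn by a rule on counts: the reads of Krt5 and Krt14, the keratin pair of the basal epidermal layer, were summed and divided by all counts of the library. Libraries under 1000 per 1000000 were called epidermis-poor. They were 3 of 12: LE4, VtA1 and VtA2. The other 9 were called epidermis-bearing. The mice had lymphedema (LE, 4 libraries), lymphedema treated by lymph node transfer (VLNT, 4 libraries), or the transfer together with ABTAA, an antibody that turns on the endothelial receptor Tie2 (VtA, 4 libraries). Per the labels, RNA with poly(A) tails was sequenced from frozen hindlimb tissue, and no layer of the limb is named. The rule put 1 LE library, 2 VtA libraries and 0 VLNT libraries in the epidermis-poor set. The members were thus chosen by measured Krt5 and Krt14 counts, so the comparison between the sets is a description, given with fold changes and standard errors (SE) and without p-values.

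Epidermis is a layered sheet of keratinocytes. Basal cells divide on the basement membrane, suprabasal cells switch keratins and tie themselves together with desmosomes, and the outermost cells crosslink their proteins and lipids into the cornified barrier. Hair follicles, sebaceous glands, pigment cells and resident immune cells sit in or under this sheet, the dermis below is made of fibroblasts and collagen, and skeletal muscle, with its sarcomeres, calcium stores and energy enzymes, makes up most of the limb around the bone. In bulk tissue, fewer cells of a type and less RNA per cell cannot be told apart.

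Krt5 and Krt14 together held 1.97 counts per 1000000 in LE4, 0.834 in VtA1 and 291 in VtA2. The 9 epidermis-bearing libraries held from 1543 in VtA4 to 18101 in LE1. The libraries nearest to the threshold were VtA2 inside it (95% Wilson interval 287 to 295) and VtA4 outside it (1534 to 1552), intervals that cover counting error only. VtA2 therefore kept a trace of epidermal signal that LE4 and VtA1 did not: it had 13858 counts of Krt5, against 93 in LE4 and 15 in VtA1. The ratio of Krt14 to Krt5 counts also differed between libraries, from 7.94 in LE1 to 0.484 in LE4, and it was under 1 in VtA2, VtA3 and VtA4 as well.

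**Figure D1:**
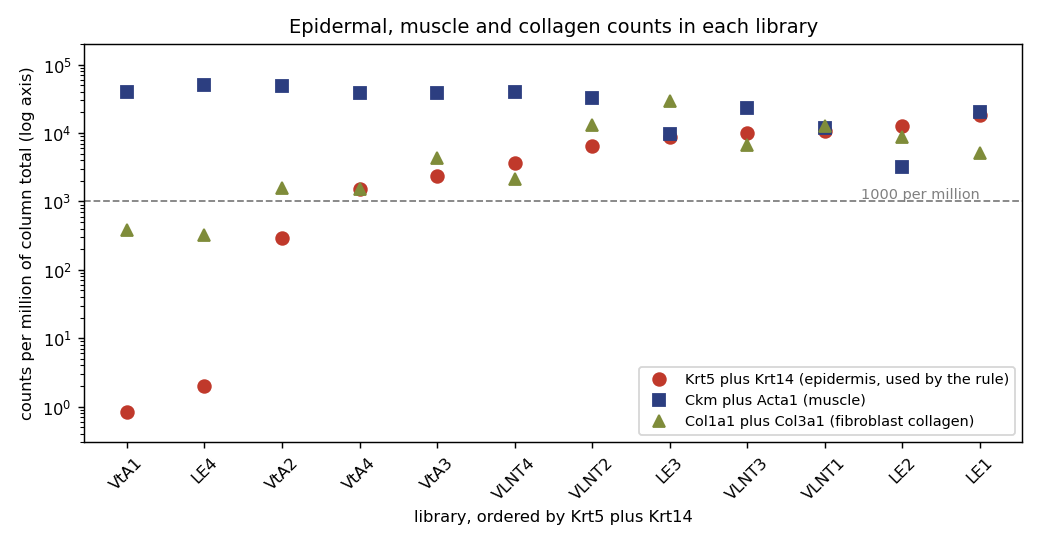
Counts per 1000000 of the column total on a log axis, by library in order of Krt5 plus Krt14, for the rule's keratin pair, a muscle pair (Ckm plus Acta1) and a collagen pair (Col1a1 plus Col3a1). Krt5 plus Krt14 runs from 0.834 in VtA1 to 18101 in LE1 while Ckm plus Acta1 stays between 3236 and 50159.

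Totals were 56042030 to 72540147 counts per library. Muscle creatine kinase and skeletal actin (Ckm plus Acta1) took 50159 per 1000000 in LE4, 40047 in VtA1 and 48824 in VtA2, against 3236 to 40281 in the 9 others, so the sets overlapped: VLNT4, at 40281, lay above VtA1. Collagen counts (Col1a1 plus Col3a1) were 320.2 per 1000000 in LE4, 386 in VtA1 and 1577 in VtA2, and VtA4 lay below VtA2 with 1519. Transcripts encoded in mitochondria made up 19.9% of counts in LE4, 25.9% in VtA1 and 16.6% in VtA2. LE1 stood apart from all other libraries with 0.433% mitochondrial counts and 15.8% in ribosomal protein genes. Several of the highest bearing values given below are those of LE1, and not all of them are marked as such.

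The split separated genes downward far more often than upward. A gene is called separated here when the 3 epidermis-poor libraries all lay below, or all above, each of the 9 others and the fitted fold was at least 4. Of 19738 genes tested beside the keratin pair, 1688 were separated lower (8.55%) and 207 separated higher (1.05%). Without the limit on fold, 2952 genes lay lower and 1691 (8.57%) higher without overlap. Of the lower ones, 143 had no count in any epidermis-poor library. The median over all genes was a log2 difference of -0.20, or -0.79 when libraries were scaled by their totals alone and not by edgeR's TMM factors, and lists of genes are read against that shift. In direction alone, 11335 of the 19738 genes were lower in the poor set and 8403 higher. By totals, 2433 genes were separated lower and 6 higher.

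The epidermis-poor libraries come from LE and VtA, and those treatments give a pair of splits with no library in common: LE4 against LE1 to LE3, and VtA1 with VtA2 against VtA3 with VtA4. The separated-lower genes had a median log2 difference of -3.44 in the LE split and -1.55 in the VtA split. For the separated-higher genes the medians were 3.54 and 0.58, and 166 of 207 passed a 4-fold change in the LE split against 0 in the VtA split. Without LE4, 14 genes were separated higher by the same rule and 1213 lower. List medians on the lower side also shrank without LE4, to -2.28 for basal, -3.39 for suprabasal, -3.31 for cornified, -2.94 for barrier lipid, -3.32 for wound keratin and -5.15 for hair follicle genes. They were then -2.29 for sebaceous, -3.01 for pigment cell, -1.57 for Langerhans cell, -1.93 for T cell, -0.84 for fibroblast and -2.05 for cell cycle genes. Most of the genes separated higher were thus called through LE4, beside which Ckm plus Acta1 ran from 3236 to 20343 in LE1 to LE3.

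**Figure D2:**
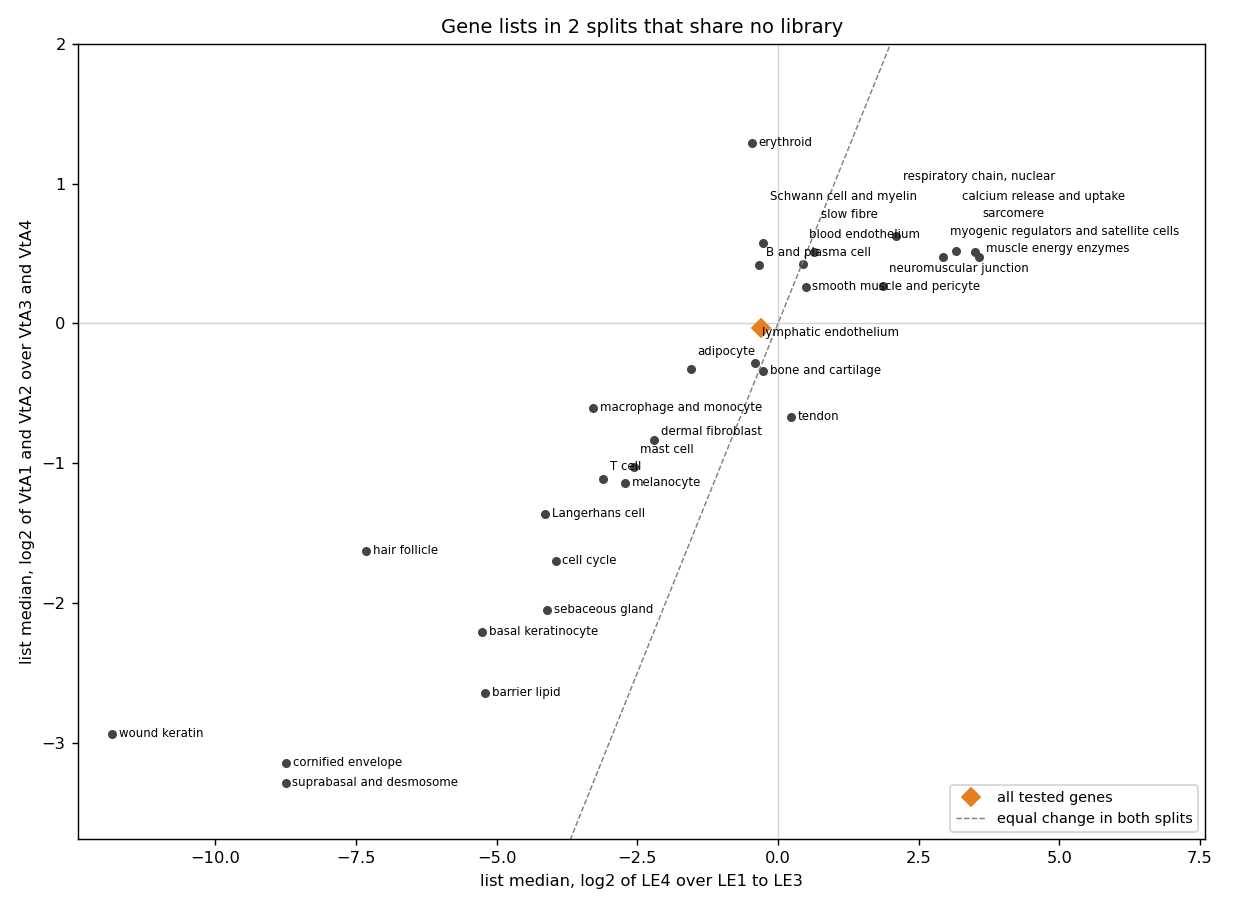
Median log2 difference of each gene list in the LE split (horizontal) and in the VtA split (vertical), with the diamond for all tested genes and the dashed line for equal change. Skin lists lie far to the left and below 0, and the sarcomere, calcium, energy and myogenic lists lie at 2.94 to 3.58 on the horizontal axis and 0.47 to 0.52 on the vertical one.

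Promoters are shown for separated genes of the epidermal lists, Krt10 and Lgals7, and of the muscle lists, Atp2a1 and Acta1, the 2 of each kind with the highest mean CPM among those with a window in the RefSeq table, as the genes a reader meets most often in the values that follow. The sequences are the 250 bases before the gene start from RefSeq (GRCm38.p6), 5′ to 3′ on the gene's strand. Capitals mark matches on either strand to TGANTCA (the AP-1 site), CAGCTG (an E-box form), TATAAA, or the MEF2 consensus.
Krt10 (chr11:99389365-99389614, minus strand): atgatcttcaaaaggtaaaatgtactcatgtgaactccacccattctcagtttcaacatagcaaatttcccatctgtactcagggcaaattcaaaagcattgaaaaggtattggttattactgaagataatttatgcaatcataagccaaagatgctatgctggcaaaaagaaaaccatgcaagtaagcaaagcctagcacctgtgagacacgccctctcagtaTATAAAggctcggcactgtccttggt
Lgals7 (chr7:28864136-28864385, plus strand): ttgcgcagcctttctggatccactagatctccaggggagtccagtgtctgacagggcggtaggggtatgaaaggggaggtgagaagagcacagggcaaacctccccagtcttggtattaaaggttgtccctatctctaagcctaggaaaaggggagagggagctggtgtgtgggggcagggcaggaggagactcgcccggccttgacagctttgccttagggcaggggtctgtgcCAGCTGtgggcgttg
Atp2a1 (chr7:126463074-126463323, minus strand): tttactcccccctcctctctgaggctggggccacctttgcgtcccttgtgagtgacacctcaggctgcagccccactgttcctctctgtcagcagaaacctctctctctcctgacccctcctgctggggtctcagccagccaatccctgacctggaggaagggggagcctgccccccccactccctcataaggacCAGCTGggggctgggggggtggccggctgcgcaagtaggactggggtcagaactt
Acta1 (chr8:123894776-123895025, minus strand): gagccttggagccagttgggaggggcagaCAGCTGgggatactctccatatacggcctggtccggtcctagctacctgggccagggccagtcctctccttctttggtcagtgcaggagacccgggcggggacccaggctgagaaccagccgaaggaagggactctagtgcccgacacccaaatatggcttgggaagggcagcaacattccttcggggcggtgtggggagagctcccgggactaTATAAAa
The Krt10 window held TATAAA, the Lgals7 and Atp2a1 windows each held CAGCTG, and the Acta1 window held both. Over 14383 tested genes with such a window, TGANTCA was present in 5.38%, against 10.5% of 1236 separated-lower genes and 3.90% of 154 separated-higher genes. The MEF2 consensus was present in 0.563% of all windows, 0.162% of the lower and 5.19% of the higher set. CAGCTG was in 12.6%, 13.8% and 16.9%, and TATAAA in 8.37%, 10.8% and 16.2%. These are counts of letters in a short window and no test was made of them.

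Basal keratinocyte genes were low in LE4 and VtA1 and partly kept in VtA2. Of 13 measured, 10 were separated lower, beside 8.55% of all tested genes, and the median log2 difference was -3.59. Col17a1, the collagen that pins basal cells to the basement membrane, stood at 1.500 CPM in LE4, 0.504 in VtA1 and 124 in VtA2. Its lowest, median and highest values in the bearing set were 128, 369 and 560.1 CPM, so the sets did not overlap, and VtA2 lay just under LE1 (log2 difference -4.08 ± 1.64). Krt15, a keratin of basal and follicle stem cells, was at 0.465 CPM in LE4, 0 in VtA1 and 101 in VtA2, against 113, 269 and 651 CPM. Trp63, the transcription factor that maintains epidermal progenitors, was at 9.48 CPM in LE4, 11.36 in VtA1 and 26.1 in VtA2, with bearing values of 33.2 to 183 CPM (-2.66 ± 0.63). Lama3 and Lamb3, which encode laminin chains of the basement membrane, were separated lower (-2.74 ± 0.84 and -3.59 ± 1.12). The integrin genes differed: Itgb4, a part of the hemidesmosome, was separated lower (-2.26 ± 0.53), but Itga6 (-1.10) and Itga3 (-1.37) overlapped between sets. Dst, a large linker protein made in both keratinocytes and muscle, was the list's exception at 409 CPM in LE4, 626 in VtA1 and 590.0 in VtA2 against 65.7, 291 and 602 CPM (0.96 ± 0.48).

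Suprabasal and desmosome genes showed the same order of libraries with wider gaps. All 15 were lower, 10 of them separated, with a median of -4.79, beside 8.55% of all tested genes separated lower. Krt10, a keratin of the spinous layer, was at 6.38 CPM in LE4, 12.3 in VtA1 and 400.0 in VtA2, and its lowest, median and highest bearing values were 1707, 2973 and 5130.2 CPM. Its partner Krt1 was at 1.33 CPM in LE4, 10.02 in VtA1 and 98.1 in VtA2 against 559, 3228 and 4848 CPM (-5.40 ± 1.55). VtA2 lay more than 5-fold below the lowest bearing library for Krt1 but about 4-fold for Krt10. Lgals7, a galectin of stratified epithelia, was at 0.317 CPM in LE4, 0.705 in VtA1 and 39.8 in VtA2 against 174, 596 and 6770.2 CPM, the highest value being LE1 alone. The desmosomal cadherins Dsg1a (-4.62 ± 1.76) and Dsg1b (-4.97 ± 1.62) were separated lower, whereas Dsc1 and Dsc3 were not, because LE1 (23.0 and 34.2 CPM) lay under VtA2 (25.9 and 51.0). Krt77, a keratin of sweat ducts and upper epidermis, overlapped as well: it was at 2.39 CPM in LE4, 0 in VtA1 and 350.1 in VtA2, against 285, 902 and 1891 CPM. Jup, plakoglobin, which also serves junctions outside the epidermis, differed by only -1.43.

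The cornified layer was the most completely separated group. Of 21 genes, 19 were separated lower (median -4.88), beside 8.55% of all tested genes. Flg, the precursor of filaggrin, which bundles keratin in dying cells, was at 0.148 CPM in LE4, 6.65 in VtA1 and 19.98 in VtA2 against 75.9, 1118 and 1424 CPM (-4.35 ± 1.63). Lor, loricrin, the main protein of the envelope, was at 0.718 CPM in LE4, 1.66 in VtA1 and 68.9 in VtA2 against 264, 399 and 1649 CPM (-4.75 ± 1.67). Asprv1, the protease that trims profilaggrin, was at 0.359 CPM in LE4, 2.14 in VtA1 and 40.7 in VtA2 against 139, 578 and 1355 CPM. Lce3c, a late envelope protein, had 0 counts in all 3 poor libraries, where 3 counts correspond to 0.057 to 0.076 CPM, and 0.412, 11.2 and 393 CPM in the bearing set. Its mean was therefore at least 809-fold lower at a floor of 3 counts per library, or 159-fold without LE1, which held 393 CPM. The enzymes that make barrier lipids fell in the same place: 13 of 16 were separated lower (median -4.36). Elovl4, which makes the very long fatty acids of skin ceramides, was at 0.127 CPM in LE4, 0.630 in VtA1 and 36.2 in VtA2 against 177, 332 and 836 CPM (-5.02 ± 1.77), and Elovl7 at 0.211 CPM in LE4, 1.06 in VtA1 and 7.45 in VtA2 against 22.5, 81.1 and 142 CPM. Ugcg, the glucosylceramide synthase used in many tissues, did not overlap between sets but missed the 4-fold limit (-1.77 ± 0.45).

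Many of these genes lie together in the genome. Between 92 and 93 Mb of chromosome 3 (GRCm38), the epidermal differentiation complex, 35 of 46 tested genes were separated lower, and they included Lor, the envelope gene Ivl and most of the late cornified envelope genes. The next window, from 93 to 94 Mb, with Flg, Hrnr, Tchh and Crnn, added 8 of 14. In the keratin cluster of chromosome 15 (101 to 102 Mb) it was 10 of 37, in the kallikrein cluster of chromosome 7 (43 to 44 Mb) 9 of 25, and in the interleukin-1 and interleukin-36 cluster of chromosome 2 (24 to 25 Mb) 8 of 17. By family, 17 of 21 late cornified envelope genes, 10 of 15 small proline-rich genes, 8 of 11 kallikrein-related peptidases and 10 of 22 serpin B genes were separated lower. Over all tested genes the share separated lower was 8.55%. No window of 1 Mb held more than 5 separated-higher genes.

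Wound keratins also differed within the bearing set. Krt6b, made in injured and hyperproliferative epidermis, was at 0 CPM in LE4, 0 in VtA1 and 0.690 in VtA2. Among bearing libraries it was at 5.75 CPM in VtA3 and 5.96 in VtA4, 722 in VLNT4, and 2212 to 4089 in the other 6. Krt16, its partner, was at 0 CPM in LE4, 0.403 in VtA1 and 2.203 in VtA2, at 48.7 in VtA3 and 17.9 in VtA4, and at 671 to 8028 in the other 7. The highest Krt16 value was that of LE1, and the next was 2615 CPM in VLNT3. So VtA3 and VtA4 held Krt10 within about 3-fold of the highest library but Krt6b and Krt16 over 10-fold below the other bearing ones. Krt17, another keratin of injured skin, was less far down, at 206 CPM in VtA3 and 76.2 in VtA4 against 334 to 4185 in the other 7 and 35.2 in VtA2. LE1 again held the highest value. Krt6a, near-identical to Krt6b so that reads could be shared between them, gave the same picture (-5.24 against -5.75). Stfa3, a stefin of inflamed skin, was separated lower (-7.75 ± 2.36). S100a8 and S100a9, calprotectin subunits of neutrophils and stressed keratinocytes, were not: VtA2 (18.4 and 39.9 CPM) lay above VtA3 (0.473 and 0.821), and the fitted differences were 2.49 ± 3.31 and 3.15 ± 3.63.

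**Figure D3:**
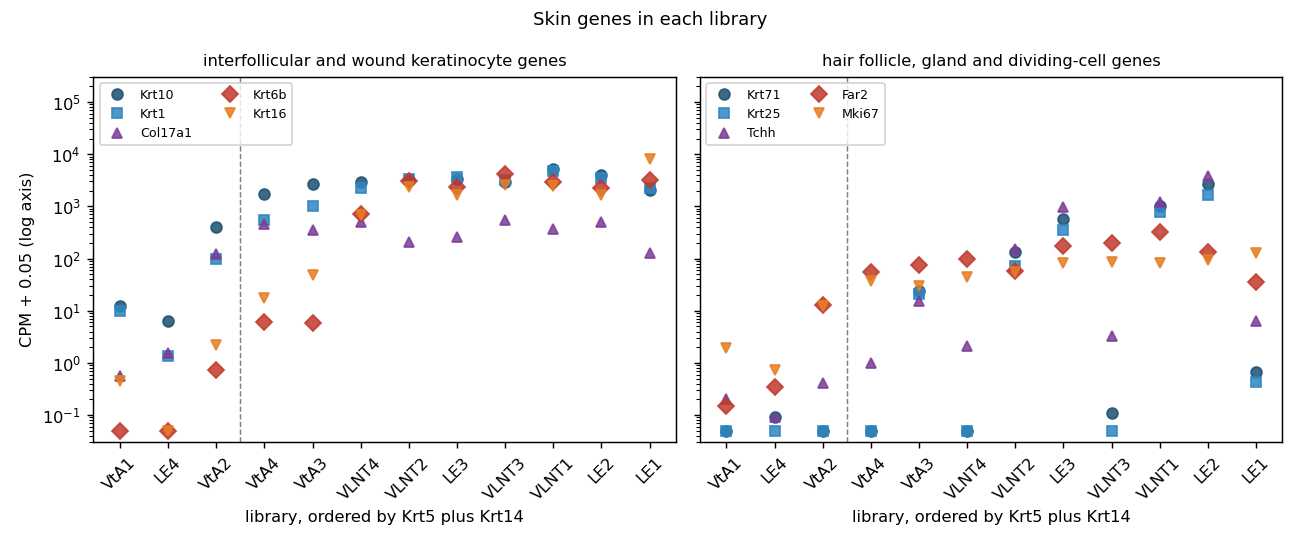
CPM plus 0.05 on a log axis for 10 skin genes by library, ordered by Krt5 plus Krt14, with the 3 epidermis-poor libraries left of the dashed line. Krt6b and Krt16 drop in VtA3 and VtA4 while Krt10 does not, and the hair keratins Krt71 and Krt25 are high in 4 bearing libraries.

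Hair follicle genes divided the bearing set itself. Of 21 measured, 21 were lower and 6 separated, beside 8.55% of all tested genes separated lower. No count was found in the poor libraries for 9 of them. Krt71, a keratin of the inner root sheath, was at 0.0422 CPM in LE4, 0 in VtA1 and 0 in VtA2, but only 4 of the 9 bearing libraries were above 100 CPM: LE2 (2682), VLNT1 (999), LE3 (567) and VLNT2 (133). VLNT4 and VtA4 had 0 counts and LE1, with the most Krt5 and Krt14, had 0.613 CPM. Tchh, trichohyalin, was separated (-6.71 ± 3.26) with bearing values from 0.927 in VtA4 to 3876 in LE2. All 48 tested keratin-associated protein genes, which build the hair shaft, failed to separate, none reached 10 CPM in a poor library, so no fold change is given for them. Sebaceous gland genes were present in every bearing library: 9 of 14 were separated lower, Far2, which makes fatty alcohols for wax esters, at 0.296 CPM in LE4, 0.101 in VtA1 and 12.9 in VtA2 against 35.8, 96.8 and 320.3 CPM (-4.73 ± 1.65). Of 7 pigment cell genes 5 were separated lower, among them Dct, a melanin enzyme, at 0 CPM in LE4, 0 in VtA1 and 0.306 in VtA2 against 1.16, 2.41 and 10.7 CPM. Mitf, the melanocyte regulator that is active in other cells too, differed by less than its SE (0.14 ± 0.43; -0.53 by totals).

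Markers of Langerhans cells, T cells, macrophages and mast cells were mostly lower in the poor libraries. The B and plasma cell list divided: of 14 genes 8 were lower, 6 higher and 0 separated (median -0.25, and 0.82 without LE4). Cd207, langerin, which marks Langerhans cells, was at 0 CPM in LE4, 0 in VtA1 and 1.09 in VtA2 against 3.18, 5.46 and 8.78 CPM (-4.63 ± 1.39). The MHC class II genes H2-Aa (-2.49 ± 0.86) and Cd74 (-2.50 ± 0.99) were lower but overlapped through VtA4, which held 55.3 CPM of H2-Aa against 72.6 in VtA2. T cell genes were separated in 12 of 18 (median -2.90). Trdc, the constant region of the gamma-delta receptor, was at 0.444 CPM in LE4, 0.655 in VtA1 and 1.13 in VtA2 against 1.99, 3.93 and 8.98 CPM, and Cd3g, a receptor chain, at 0 CPM in LE4, 0 in VtA1 and 0.594 in VtA2 against 2.91, 5.68 and 25.5 CPM (-5.21 ± 1.50). Cd4 overlapped (-0.74 ± 1.65, 0.82 without LE4) because VLNT4, VtA3 and VtA4 were at 1.85, 1.15 and 0.309 CPM, under the 2.49 of VtA2. Macrophage genes were lower in 16 of 16, beside 11335 of 19738 tested genes, and separated in 0 (median -1.70, and -0.62 without LE4). C1qb, a complement subunit, was at 9.67 CPM in LE4, 15.03 in VtA1 and 27.6 in VtA2 against 11.04, 64.3 and 527 CPM. Mast cell genes had a median of -2.24 (-1.37 without LE4) with 1 of 11 separated, a share near the 8.55% of all genes, Hpgds, a prostaglandin synthase (-3.30 ± 0.68). The summed T cell list took 0.000358% to 0.00108% of counts in the poor libraries and 0.00218% to 0.0160% in the others.

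Cell cycle genes were low in the same libraries. Of 24 cell cycle genes, 20 were separated lower (median -3.11), beside 8.55% of all tested genes. Mki67, present in dividing cells, was at 0.697 CPM in LE4, 1.86 in VtA1 and 12.5 in VtA2 against 29.4, 80.5 and 128 CPM (-3.57 ± 1.07), and Top2a, the topoisomerase of chromosome separation, at 0.570 CPM in LE4, 1.03 in VtA1 and 6.88 in VtA2 against 22.1, 42.6 and 65.5 CPM. Ccnb1, the mitotic cyclin, was at 0 CPM in LE4, 0.277 in VtA1 and 1.67 in VtA2 against 4.81, 16.1 and 27.6 CPM. The list’s mean log2 level was 0.46 in LE4, 0.76 in VtA1 and 1.84 in VtA2, and 2.74 to 4.34 in the bearing set. Aurka (0.06 ± 0.31) and Mcm2 (-0.07 ± 0.24) differed by less than their SE, and Pcna, the replication clamp, was lower without overlap by less than 2-fold (-0.81 ± 0.37).

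Dermal fibroblast and fat genes differed less. All 17 fibroblast genes were lower, beside 11335 of 19738 tested genes, and 3 of the 17 were separated (median -1.34). Col1a1, a chain of type I collagen, was at 198 CPM in LE4, 196 in VtA1 and 618 in VtA2 against 729.5, 1639 and 5252 CPM (-2.24 ± 0.95), and Col1a2 at 349 CPM in LE4, 366 in VtA1 and 868 in VtA2 against 964, 1928 and 6347 CPM. Col3a1 overlapped, since VtA4 held 915 CPM and VtA2 1550.2. Dcn, decorin, which connective tissue of muscle also makes, was at 632 CPM in LE4, 1034 in VtA1 and 703 in VtA2 against 333, 1027 and 2253 CPM (-0.49 ± 0.63). Twist2, a dermal transcription factor, was separated at -2.82. Of 14 adipocyte genes 0 were separated in either direction (median -1.14, -0.38 without LE4), with 10 lower and 4 higher. Their summed share of counts was higher in the poor libraries, at 0.264% to 0.313% against 0.129% to 0.257%. That sum includes Car3, which muscle also makes, so it is not a measure of fat alone. Fabp4, a fatty acid carrier, differed by -0.19 ± 0.57 (0.39 without LE4), while Car3, a carbonic anhydrase of fat and muscle, was higher at 3021 CPM in LE4, 2016 in VtA1 and 2569.6 in VtA2 against 188, 683 and 2034 CPM (1.93 ± 0.62).

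Muscle genes were high in all 3 epidermis-poor libraries, and several bearing libraries came close to them. Of 24 sarcomere genes 24 were higher and 8 separated, with a median of 1.99 that fell to 0.53 without LE4. Over all tested genes 8403 of 19738 were higher, and 1.05% were separated higher. Acta1, skeletal actin, was at 40553 CPM in LE4, 29422 in VtA1 and 40379 in VtA2 against 1092, 11505 and 28195 CPM (2.04 ± 0.97). The highest bearing library, VtA4, had 28195 CPM, close under VtA1. Myh4, the myosin of the fastest fibres, was at 80397 CPM in LE4, 64277 in VtA1 and 86568 in VtA2 against 1982, 23722 and 74631 CPM and overlapped through VtA4 (1.96 ± 1.10). Myh2, the myosin of fast oxidative fibres, was separated (2.34 ± 0.90), at 3002 CPM in LE4, 4664 in VtA1 and 2741 in VtA2 against 60.5, 1314 and 2703 CPM. Sarcomere genes together took 17.7% to 21.0% of the counts in the poor libraries and 1.50% to 18.5% in the others. The 3 genes of the fast troponin complex varied: Tnnt3 was higher without overlap (1.43 ± 0.98), and Tnni2 (0.69 ± 1.02) and Tnnc2 (0.67 ± 1.00) were highest of all in LE1 (19517 and 17989.9 CPM).

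Calcium handling and energy genes moved with the sarcomere. Their counts stand beside 8403 of 19738 tested genes that were higher and 1.05% that were separated higher. Atp2a1, the calcium pump of fast fibres, was at 47771 CPM in LE4, 31781 in VtA1 and 46628 in VtA2 against 1014, 13973 and 31319.7 CPM (2.62 ± 1.10; 0.57 without LE4). Ryr1, the calcium release channel, was at 3936 CPM in LE4, 3727 in VtA1 and 6810.1 in VtA2 against 119, 1746 and 5116 CPM and overlapped through VLNT4 and VtA4. Of 17 calcium genes 16 were higher and 3 separated (median 1.74, 0.53 without LE4), the exception being Sln, the pump inhibitor sarcolipin (-2.86 ± 1.51). Of 17 muscle energy genes 17 were higher and 7 separated (median 2.02, 0.49 without LE4). Pfkm, the muscle phosphofructokinase, was at 6007 CPM in LE4, 4566 in VtA1 and 5668 in VtA2 against 160.2, 1710.2 and 4152 CPM (2.04 ± 0.80), and Slc2a4, the insulin-responsive glucose transporter, at 864 CPM in LE4, 581 in VtA1 and 719 in VtA2 against 21.9, 254 and 508 CPM (2.49 ± 0.81). Respiratory chain genes of the nucleus were higher in 26 of 26 with 0 separated (median 1.28, 0.64 without LE4), Sdha, a subunit of succinate dehydrogenase, at 973 CPM in LE4, 1153 in VtA1 and 952 in VtA2 against 119.6, 416 and 709 CPM (1.65 ± 0.47). The myogenic regulators gave a median of 2.01 (0.50 without LE4) with 2 of 13 separated, Myf6 (2.18) and Vgll2 (2.01). Pax7, the satellite cell factor, was higher with overlap (2.18 ± 0.91).

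Slow fibre and nerve genes overlapped between the sets. Slow fibre genes had a median of 0.58 with 0 of 11 separated. Myh7, the slow myosin, was at 125 CPM in LE4, 498 in VtA1 and 48.3 in VtA2, and the bearing libraries ranged from 2.40 in LE2 to 369.9 in VLNT2, so the poor set alone spanned a 10-fold range. Neuromuscular junction genes had a median of 1.13 (0.30 without LE4): Chrnb1, a subunit of the acetylcholine receptor, was higher without overlap (1.76 ± 0.56), and Lrp4, the agrin receptor that skin also makes, was lower (-1.26 ± 0.47). Mbp, myelin basic protein of nerve, was highest in VtA1, at 109.6 CPM, against 17.6 in LE4, 11.1 in VtA2 and 9.75 to 48.8 in the bearing set. Of the myelin list, Fa2h (-4.67 ± 1.07) and Egr2 (-3.46 ± 0.86) were separated lower, and both are also made in skin.

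**Figure D4:**
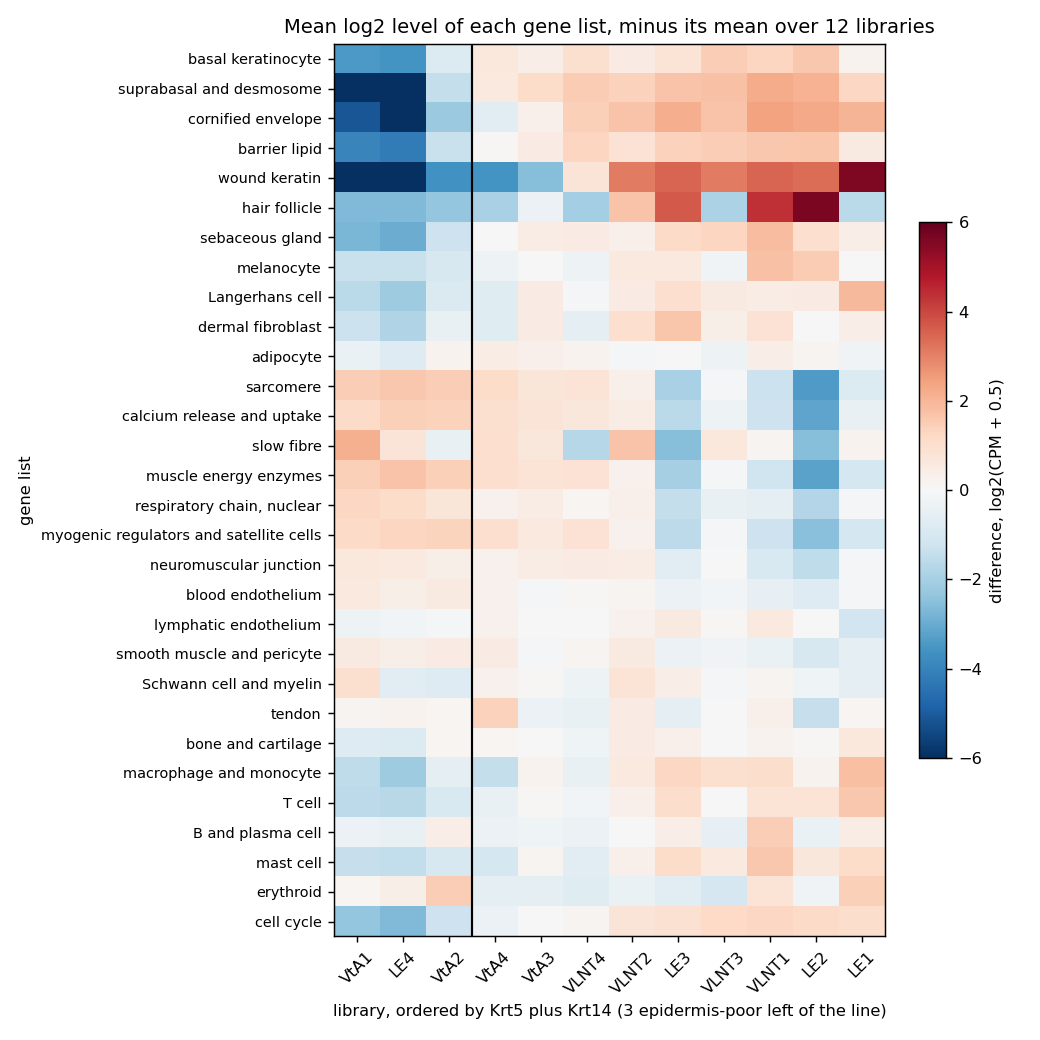
Mean log2(CPM + 0.5) of each of 30 gene lists by library, minus the list's mean over the 12 libraries, with colour clipped at 6 either way and the epidermis-poor libraries left of the line. Skin lists are blue in VtA1 and LE4 and paler in VtA2, and muscle lists are red there and also in VtA4, VtA3 and VLNT4.

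Blood endothelial genes had a median of 0.46 with 0 of 16 separated, which turned to -0.13 by library totals. By either scaling the list median lay 0.66 above the median of all genes. Pecam1, an endothelial adhesion molecule, was at 78.5 CPM in LE4, 104 in VtA1 and 94.6 in VtA2 against 43.5, 72.4 and 82.9 CPM (0.44 ± 0.26; -0.19 by totals), and Cdh5, the endothelial cadherin, at 92.0 CPM in LE4, 126 in VtA1 and 132 in VtA2 against 9.06, 55.2 and 109.9 CPM (1.06 ± 0.50). Lymphatic endothelial genes had a median of -0.40, or -1.05 by totals. Relative to the median of all genes, the gap was small, at -0.20 by TMM and -0.26 by totals. Of the 12 genes 9 were lower and 3 higher, and 1 on each side did not overlap between the sets. The list together took 0.00659% to 0.00786% of counts in the poor libraries against 0.0106% to 0.0291% in the others, without overlap. These are shares of library totals, by which the median of all genes was itself -0.79. Lyve1, a hyaluronan receptor of lymphatic vessels, overlapped at 7.98 CPM in LE4, 7.55 in VtA1 and 7.91 in VtA2 against 1.64, 8.63 and 20.5 CPM (-0.09 ± 0.58), as did Prox1, the factor that sets lymphatic identity (-0.35 ± 0.67). Ccl21a, a chemokine of lymphatic vessels, was lower without overlap by less than 4-fold, at 15.5 CPM in LE4, 8.96 in VtA1 and 13.0 in VtA2 against 17.6, 25.4 and 51.0 CPM (-1.31 ± 0.39). Pdpn, podoplanin, which keratinocytes and fibroblasts make too, overlapped (-1.62 ± 0.69). Stab2, a scavenger receptor listed with lymphatic endothelium, was the list's separated-higher gene at 28.9 CPM in LE4, 22.4 in VtA1 and 20.3 in VtA2 against 0.613, 6.84 and 19.5 CPM (2.77 ± 0.83). Smooth muscle (0.40, -0.22 by totals), tendon (0.13, -0.36 by totals and -0.66 without LE4), bone and cartilage (0.17, -0.32 and -0.81) and Schwann cell genes (0.27, -0.26 by totals) had medians whose sign depended on scaling. Set against the median of all genes, each of these lists lay above it by both scalings. The gaps, by TMM and by totals, were 0.59 and 0.57 for smooth muscle and 0.33 and 0.43 for tendon. For bone and cartilage they were 0.37 and 0.47, and for Schwann cell genes 0.46 and 0.53. Hbb-bs, a beta-globin of red cells, was highest in LE1 (556 CPM) and VLNT1 (203), and among the poor libraries in VtA2 (188).

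Muscle forms of a protein were higher in the poor libraries, and their counterparts divided. For 30 pairs, a form known from muscle was set against another form of the protein, which in some pairs is made in muscle too. The muscle form minus the other form was above 0 in 29 pairs, with a median log2 difference of 2.62, and in 22 pairs the ratio of the forms did not overlap between sets. All 30 muscle forms were higher, also by library totals, and 7 of the other forms were higher as well. Those 7 included Tnni1 (0.37) and Casq2 (0.58) of the slow fibre list and Jph2 (1.81) of the calcium list. Set against the median of all genes, 19 of the 30 other forms were below it. Ckmt2, the mitochondrial creatine kinase of muscle, was at 1154 CPM in LE4, 1515 in VtA1 and 914 in VtA2, against 33.1, 439.6 and 831 CPM, and its epithelial counterpart Ckmt1 at 0.253 CPM in LE4, 0.252 in VtA1 and 7.24 in VtA2 against 29.0, 72.8 and 188 CPM. The log2 ratio of the pair was 6.88 to 10.98 in the poor set and -1.71 to 4.57 in the bearing set. For the glucose transporters Slc2a4 and Slc2a1 the log2 ratio was 5.66 to 6.15 against -2.08 to 4.17, for the phosphofructokinases Pfkm and Pfkp 8.19 to 9.43 against 0.54 to 6.36, and for the actins Acta1 and Actb 6.40 to 6.80 against 0.00 to 5.89. The exception was glycogen synthase, where Gys2, the liver form, was at 0.528 CPM or less in all 12 libraries. In the VtA split 26 pairs went the same way and in the LE split 30.

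**Figure D5:**
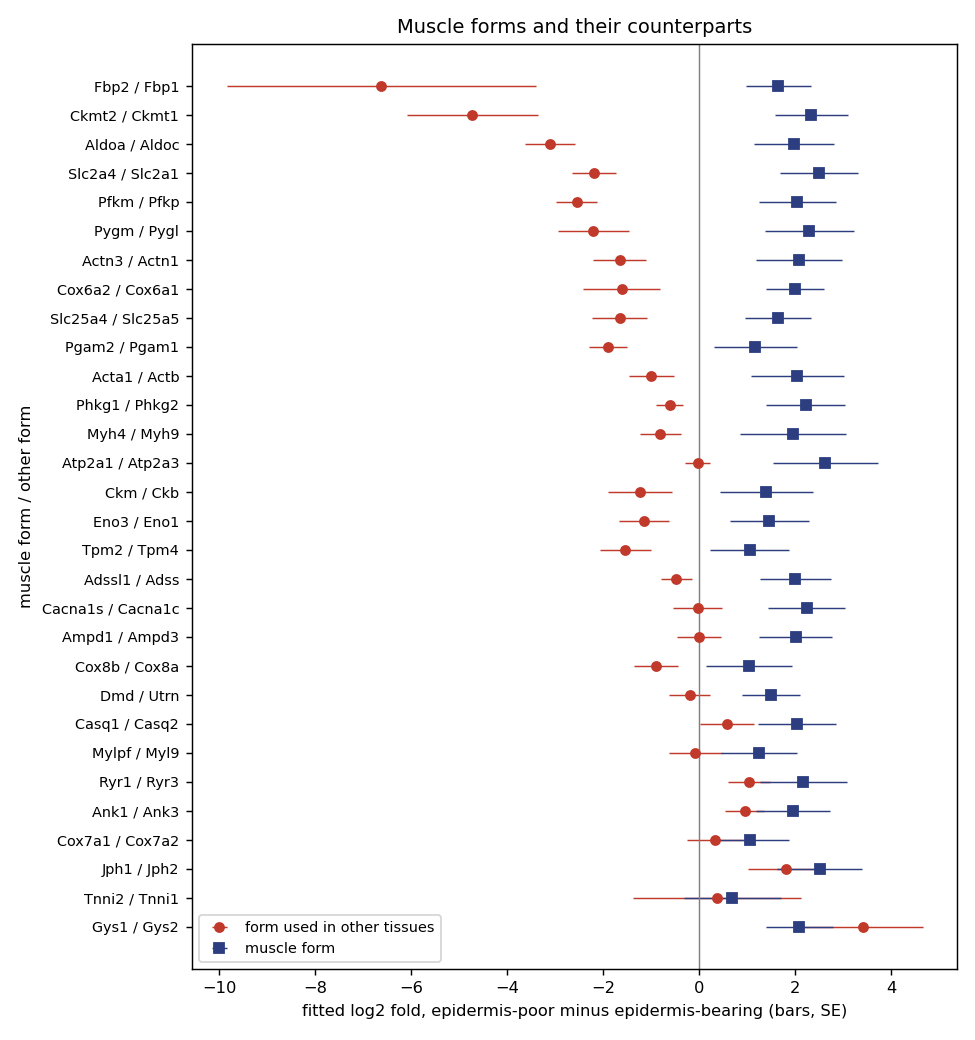
Fitted log2 difference, epidermis-poor minus epidermis-bearing, with SE bars, for 30 pairs ordered by their difference. The muscle forms (squares) all lie above 0, and the other forms (circles) run from Fbp1 at -6.62 to Gys2 at 3.41.

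Among separated genes with a mean of at least 20 CPM in the set where they were higher, the 10 with the largest fitted change on each side were as follows. Stfa1, a stefin of inflamed epidermis (chromosome 16, 36277148 to 36285371), had 0 counts in the poor libraries and 0.223, 95.8 and 447 CPM in the others. It was at least 2122-fold lower, or 1534-fold without LE1, which held the 447 CPM. Klk13, an epithelial peptidase (chromosome 7, 43712567 to 43727864), was at least 1257-fold lower, or 821-fold without LE1. Crnn, cornulin, was at least 653-fold lower, or 301-fold without LE2, where it was at 227 CPM. Sprr2a1, Sprr2a2 and Sprr2a3, near-identical small proline-rich genes whose reads can be split among copies, were at 0 in LE4 and VtA1 and at 0.0575 to 0.211 CPM in VtA2. Stfa2, Lce3c, Sprr2i and Gm11597 completed the 10. Pdk4, which shuts pyruvate out of oxidation in fasting muscle (chromosome 6, 5483351 to 5496278), was at 337 CPM in LE4, 500.4 in VtA1 and 379 in VtA2 against 7.30, 94.8 and 318 CPM (3.22 ± 0.66; 1.94 without LE4). Snrpn, an imprinted splicing protein, was at 38.1 CPM in LE4, 33.2 in VtA1 and 17.4 in VtA2 against 0, 8.41 and 16.4 CPM (3.99 ± 1.44; 0.79 without LE4), with 0 counts in LE1. Ankrd23 and Perm1, muscle genes tied to stretch and mitochondria, Aqp4, the water channel of fast fibres, the potassium channel genes Kcng4 and Kcnq5, Txlnb, Stab2 and Atp2a1 completed the higher side, at 2.62 to 2.84.

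Over all 12 libraries, the genes whose levels followed Krt5 plus Krt14 most closely included Cdc20, Slc27a4, Rps6ka4 and Tacc3 (Spearman 0.993 each over 12 libraries, of 9590 genes ranked). Cdc20, an activator of mitotic exit, was at 0.148 CPM in LE4, 0.680 in VtA1 and 1.28 in VtA2 against 5.17, 13.2 and 37.2 CPM, and Slc27a4, a fatty acid transporter needed for the skin barrier, at 12.7 CPM in LE4, 9.19 in VtA1 and 20.2 in VtA2 against 39.3, 105 and 264 CPM. The highest value of each was that of LE1. For Ckm plus Acta1 they were Hrc, a calcium-binding protein of the muscle store, Gpi1, a glycolytic enzyme, Eri3, Anapc5 and Plpp7, with Spearman 0.993 to 1.00. Hrc was at 1203 CPM in LE4, 1039 in VtA1 and 1084 in VtA2 against 33.0, 385 and 819 CPM. The points share libraries and normalization, and the rule divided the 12 libraries into sets far apart in Krt5 plus Krt14. The genes named are the top of 9590 ranked. For these reasons the values are a description.

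Within the 9 epidermis-bearing libraries, which the threshold left undivided, the level of Krt5 plus Krt14 still ran from 1543 to 18101 per 1000000 counts. A slope on its log2 value, with treatment as a term, was called for 0 of 21197 genes by edgeR's quasi-likelihood test (smallest adjusted p = 0.233), with 2506 at an unadjusted p under 0.05 (7.89% of genes with a positive slope and 3.93% with a negative one); DESeq2 called 336 positive and 171 negative slopes. Positive slopes were found for 24 of 24 cell cycle genes, beside 53.1% of all genes, and for 21 of 21 hair follicle genes. Krt16 had a slope of 1.59 ± 0.47 (adjusted p = 0.386, edgeR) and Cdc20 0.95 ± 0.23 (adjusted p = 0.386, edgeR). Krt10 (0.20 ± 0.42) and Flg (-0.53 ± 0.47) had slopes of no more than about 1 SE either way. Muscle counts ran against the keratins over the 9 libraries, with Pearson r = -0.653 (permutation p = 0.0524, adjusted p = 0.0680) and Spearman rho = -0.783 (permutation p = 0.0174, adjusted p = 0.0261). For the mitochondrial share, r was -0.622 (permutation p = 0.0593, adjusted p = 0.0680) and rho -0.900 (permutation p = 0.00202, adjusted p = 0.00606). Collagen gave r = 0.636 (permutation p = 0.0680, adjusted p = 0.0680) and rho = 0.467 (permutation p = 0.212, adjusted p = 0.212). All of these measures are shares of the same library total, so part of a negative relation can be built in. The permutations took no account of treatment, and Krt5 plus Krt14 is the measure that the rule used. Without VtA3 and VtA4, the libraries farthest from the median, r was -0.551, -0.680 and 0.310 for the 3 measures, and without LE1 it was -0.757, -0.801 and 0.773. Within treatments the libraries are too few for a test, and the signs were not all those of the 9. Over the 3 bearing LE libraries r was 0.375 for muscle, -0.876 for the mitochondrial share and -0.980 for collagen, and over the 4 VLNT libraries it was -0.851, -0.573 and 0.765. The muscle and collagen relations thus ran the other way in LE, and the bearing VtA libraries are only a pair.

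The 3 epidermis-poor libraries were unevenly spread over the treatments, which share them in each comparison. Krt5 plus Krt14 averaged 9879 ± 7634 per 1000000 in the LE libraries (SD, n = 4). The average was 7662 ± 3265 for VLNT and 1045 ± 1095 for VtA. VtA lay below VLNT in all 4 libraries (log2 difference -5.07). VLNT against LE gave 2.17, which became -0.84 without LE4, and VtA against LE gave -2.89, which ran from -5.91 without LE4 to -0.62 without VtA1. These values chose the sets, so no test is given for them. For Ckm plus Acta1 the exact permutation p was 0.429 for VLNT against LE, 0.114 for VtA against VLNT and 0.143 for VtA against LE, where 4 against 4 libraries allow no p below 0.0286, and the means were 20859 ± 20768 (LE), 26865 ± 12297 (VLNT) and 41338 ± 5066 (VtA; SD, n = 4).

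Gene by gene, edgeR's quasi-likelihood test called 0 of 19740 genes (0.00%) in each of the 3 treatment comparisons with all 12 libraries. At an unadjusted p under 0.05 there were 396 genes for VLNT against LE, 1118 for VtA against VLNT and 3256 for VtA against LE, and DESeq2 called 1, 152 and 797. Without the 3 epidermis-poor libraries edgeR again called 0 in each, with 2965, 1005 and 5514 genes at an unadjusted p under 0.05. With the set as a term it called 0, with 1282, 251 and 2310. The common dispersion, a measure of the spread between libraries of one group, was 0.470 with all libraries, 0.341 without the 3, and 0.342 with the set as a term. Leaving out LE4 alone brought it to 0.332, and then 0, 10 (0.0489%) and 6288 (30.8%) genes were called, the last with 2911 higher and 3377 lower in VtA. VtA then still held the poor VtA1 and VtA2, while LE and VLNT held only bearing libraries. Treatment and epidermal content cannot be told apart in those calls. For VtA against LE the log2 difference of Krt5 plus Krt14 was -5.91 without LE4, against -2.89 with all libraries. Tcf23, a helix-loop-helix factor gene with the smallest p for VtA against VLNT, had a log2 difference of -5.11 ± 0.78 with all libraries, -4.92 ± 0.65 without the 3 and -4.22 ± 0.82 with the set as a term (adjusted p = 0.595, 0.222 and 0.717, edgeR). Without LE4 alone it was -5.12 ± 0.47 and was called (adjusted p = 0.00490, edgeR). It stood at 0.0504, 0.0766, 0.111 and 0.0687 CPM in VtA1 to VtA4, so the bearing VtA libraries were as low as the poor ones. The poor LE4 was low as well, at 0.148 CPM against 1.82 to 2.28 in LE1 to LE3. Degs2, a ceramide desaturase of the skin barrier, likewise lay at 0.473 and 0 CPM in VtA3 and VtA4 and 0.176 and 0.172 in VtA1 and VtA2, against 8.86 to 22.4 in VLNT. In LE it was at 0.380 CPM in LE4 and 13.0 to 42.1 in LE1 to LE3. Its log2 difference was -6.21 ± 1.29 with all libraries (adjusted p = 0.653, edgeR) and -6.22 ± 0.88 without LE4 (adjusted p = 0.0467, edgeR).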

How the data were processed

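Poly(A) RNA of 12 mouse hindlimb libraries was measured with a stranded kit. The submitters' processing notes name HISAT2 2.1.0, StringTie 2.1.3b, Trimmomatic and bcl2fastq 2.20.0. The strand setting, annotation and treatment of multiply mapped reads are not given in the sources. The authors' deposited table gives raw read counts for 45777 genes, whole numbers with library totals of 56042030 to 72540147. Its TPM values, scaled by the authors to gene length and library total, served only as an alternative, and the FPKM values deposited by the authors were not used. Symbols and gene IDs are those of the file; 45675 IDs matched RefSeq genes of GRCm38.p6, the assembly behind mm10.

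Levels are CPM, counts per 1000000 of TMM-adjusted library size. The contrast of sets was fitted with edgeR 4.0.16 (R 4.3.3; filterByExpr, treatment as a term), and its p-values were not used. SE came from the test statistic. In each split, log2 ratios were of mean CPM plus 0.5. Treatment comparisons and slopes used edgeR's quasi-likelihood test with Benjamini-Hochberg adjustment over all genes, 2-sided, with DESeq2 1.42.0 as an alternative. Correlations used 100000 resamples. The fits were tested on simulated data.

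The members of the sets, the 30 gene lists and the 30 pairs were chosen with earlier results of these data known. Named genes are the 10 separated genes with the largest change on each side and at least 20 CPM in the higher set, the 3 list members with the highest mean, all pairs, the nearest genes and the genes leading the treatment comparisons; other list and family members were named after their values were seen, and some genes that the rule picks are not reported here. The labels do not say whether replicates are separate animals, so a p-value reflects only how far these samples spread, which could be technical variation. Of 18 pairs of libraries within groups 0 were identical. Genes with near-identical copies are uncertain, since the counting could split their reads.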

Additional observations from a re-analysis of the deposited data

Results flagged for a closer look

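Over 35 measures, 140 groups, the 3 treatments of 4 libraries and the 9 epidermis-bearing libraries for each measure, were searched for a library far from its group, and 11 were found; chance marks about 1 group in 20. The groups share libraries and many lists move together, so the flags are not independent of each other. Of the 11, 3 set LE4 far below LE1 to LE3: the mean log2 level of suprabasal genes was 0.89 against 8.29 to 9.12, of cornified envelope genes -0.76 against 7.41 to 7.67, and of cell cycle genes 0.46 against 3.99 to 4.25. LE4 was placed in the poor set for its low Krt5 and Krt14, so these 3 flags are not independent of that choice. VLNT4 was the lowest VLNT library for wound keratin genes, at 6.73 against 9.06 to 9.47, and for Langerhans cell genes, at 3.83 against 4.35 to 4.46. Among the 9 epidermis-bearing libraries, LE3 was highest for Col1a1 plus Col3a1 at 28940.5 per 1000000 (others 1519 to 13052), LE1 was highest for ribosomal protein genes at 15.8% of counts (others 1.23% to 6.30%) and lowest for lymphatic endothelial genes at 1.84 (others 2.96 to 3.56), and VLNT1 was highest for B and plasma cell genes at 2.45 (others 0.47 to 1.42). Among VtA libraries, VtA3 was lowest for smooth muscle and pericyte genes at 5.43 (others 5.96 to 6.01) and VtA1 for bone and cartilage genes at 0.36 (others 1.16 to 1.25).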

How the results depend on the processing

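The count of genes separated lower stayed within 1.5 times of 1688 under RLE factors, library totals, no filter, no treatment term, the authors' TPM and a threshold of 100 per 1000000. It was 2545 at a fold of 2, 706 at a fold of 16, and 1213 to 2607 with each library left out in turn. The count separated higher was less stable: 6 by library totals, 23 with no treatment term, 1064 at a fold of 2, 2 at a fold of 16, 1 by TPM, and 14 to 651 with a library left out. It was 14 without LE4, 101 without LE2, 651 without VtA1, 547 without VtA2 and 561 without VtA4. Slopes within the 9 libraries were called for 2553 genes upward and 1591 downward with no treatment term and for 336 and 171 by DESeq2, against 0 and 0; no call arose with a library left out. Treatment calls by DESeq2 were 1, 152 and 797. With each library left out, VLNT against LE gave 0 to 0 calls, VtA against VLNT 0 to 10 and VtA against LE 0 to 6288, the highest without LE4. In that fit LE held no epidermis-poor library, while VtA held VtA1 and VtA2. For Krt5 plus Krt14, VLNT against LE turned to -2217 per 1000000 on the linear scale and to -0.84 without LE4 (leave-one-out range -0.84 to 3.35), and VtA against LE ran from -5.91 to -0.62. The cause was not tested.

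Numbers shared between groups did not pair the libraries: deviations of same-numbered libraries correlated from -0.43 to 0.56. A replicate block cannot change a mean difference between groups that hold the same replicate numbers. The Krt5 plus Krt14 difference of VtA against VLNT was thus again -5.07 with it. With a library left out the difference was -6.23 to -2.79. These values chose the sets, so no p is read from them. Of 3222 values of 179 named genes under 18 alternatives, 2964 moved by under 1 SD, 258 by more, and 0 separated genes changed sign.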

Other observations

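The 3 epidermis-poor libraries also differed among themselves outside skin. Among them VtA1 held the most of Tnnt1, a slow troponin, at 142 CPM against 41.5 in LE4 and 12.2 in VtA2, and of Prx, a myelin protein, at 30.7 against 6.10 and 2.83. Igkc, an antibody light chain, was at 321 CPM in VLNT1 and at 0.148 to 17.7 in the 11 other libraries. Fmod, a tendon proteoglycan, was at 982 CPM in VtA4 and 9.05 to 356 elsewhere.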
